A study of Mus musculus with 20 samples.

Results

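The genes described here code for the subunits of the proteasome. They are the 37 protein-coding genes, of 32285 genes in the table, whose symbol is Psma, Psmb, Psmc or Psmd followed by a number, leaving out Psmb8 and Psmb9. Of these, 17 belong to the core particle (Psma and Psmb) and 20 to the regulatory particle (Psmc and Psmd). A filter of at least 1 TPM (a share of all transcripts that takes transcript length into account) in at least 5 libraries kept 35 of the 37, 15 of the core particle and 20 of the regulatory particle. Psma8, an alpha subunit known from testis, was listed at 0 in all 20 libraries, and Psmb11, the catalytic subunit of the thymus, reached at most 0.33 TPM.

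The proteasome is the chamber in which cells break down proteins tagged with ubiquitin. Its core particle is a barrel of stacked rings: the Psma genes code for the outer alpha rings, which gate the entry, and the Psmb genes for the inner beta rings, where Psmb5, Psmb6 and Psmb7 hold the protease sites. The regulatory particle caps the barrel. The Psmc genes code for its ring of ATPases, which unfold and feed in the substrate, and most Psmd genes for scaffolds and receptors of the base and for the lid, where Psmd14 removes ubiquitin. Psmd5, Psmd9 and Psmd10 code for chaperones that help to assemble the base and leave before it is complete. When the proteasome is short, the transcription factor Nfe2l1 is known to raise the transcription of its subunit genes through antioxidant response elements.

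RNA was measured in immortalized primary murine cancer-associated fibroblasts (CAFs), the stromal cells of pancreatic tumours that the series is about, in 4 groups of 5 libraries, each after 32 h. The 4 mM vehicle group had glutamine at 4 mM, the 4 mM IL-1a group had the same with the cytokine IL-1a at 25 pg/mL, the 0.2 mM vehicle group had glutamine at 0.2 mM, and the 0.2 mM EIPA group had 0.2 mM with 25 uM EIPA. The sample titles name DMSO, the vehicle, for every group except the EIPA group, whose titles name EIPA without DMSO. EIPA is an amiloride analogue that blocks sodium-proton exchange and is used to stop macropinocytosis, the uptake of extracellular fluid in bulk. The sample titles give the EIPA dose in uM and the treatment protocol in mM, and the titles are followed here. There was no EIPA group at 4 mM and no IL-1a group at 0.2 mM. The labels name a single kind of immortalized cell and do not say whether the 5 replicates came from cultures of their own, so a p-value here speaks of the spread among these libraries, which may be technical.

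The promoters of 5 members that the results turn on are shown because, of the genes with a RefSeq promoter, Psmd8, Psmd9 and Psmb5 rose most and Psmd1 and Psmd2 fell most at low glutamine. Each run is the 250 bases before the RefSeq start on GRCm38.p6, read 5′ to 3′ on the strand of the gene. Capitals mark a match to the core of the antioxidant response element, searched on both strands as TGACNNNGC or TGAGNNNGC.
Psmd8 (chr7:29180674-29180923, minus strand): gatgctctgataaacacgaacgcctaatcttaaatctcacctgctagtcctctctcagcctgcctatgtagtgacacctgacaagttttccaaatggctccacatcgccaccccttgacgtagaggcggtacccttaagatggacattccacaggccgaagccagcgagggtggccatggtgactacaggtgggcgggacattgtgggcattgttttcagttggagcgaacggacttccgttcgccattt
Psmd9 (chr5:123227940-123228189, plus strand): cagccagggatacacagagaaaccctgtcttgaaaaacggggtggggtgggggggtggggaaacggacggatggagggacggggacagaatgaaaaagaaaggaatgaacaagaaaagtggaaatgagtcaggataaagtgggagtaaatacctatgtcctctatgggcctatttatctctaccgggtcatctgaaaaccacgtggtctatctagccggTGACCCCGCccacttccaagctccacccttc
Psmb5 (chr14:54617996-54618245, minus strand): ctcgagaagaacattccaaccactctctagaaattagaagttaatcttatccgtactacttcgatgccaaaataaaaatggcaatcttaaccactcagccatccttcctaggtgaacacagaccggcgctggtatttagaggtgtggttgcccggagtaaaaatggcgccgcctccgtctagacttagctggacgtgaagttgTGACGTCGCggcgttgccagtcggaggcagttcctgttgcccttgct
Psmd1 (chr1:86064369-86064618, plus strand): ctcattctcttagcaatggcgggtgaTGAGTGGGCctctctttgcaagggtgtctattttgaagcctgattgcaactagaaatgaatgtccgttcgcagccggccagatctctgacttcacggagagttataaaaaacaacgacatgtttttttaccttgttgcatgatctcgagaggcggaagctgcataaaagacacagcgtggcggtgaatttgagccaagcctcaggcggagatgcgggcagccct
Psmd2 (chr16:20651402-20651651, plus strand): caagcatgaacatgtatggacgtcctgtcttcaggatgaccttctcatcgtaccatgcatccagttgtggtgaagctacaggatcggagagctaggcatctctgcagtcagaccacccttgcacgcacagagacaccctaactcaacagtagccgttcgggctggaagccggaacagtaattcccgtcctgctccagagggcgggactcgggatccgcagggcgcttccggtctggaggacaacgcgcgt
The match in Psmd9, TGACCCCGC, began 31 bases before the start, and that in Psmb5, TGACGTCGC, began 47 bases before it. The match in Psmd1, TGAGTGGGC, lay 224 bases before the start, in a stretch where GENCODE also begins non-coding transcripts of Psmd1. GENCODE places the starts of Psmd8 and Psmb5 a little upstream of the RefSeq starts, inside the last bases shown. It begins Psmd9 much further upstream, at chr5:123169413, so the Psmd9 window lies within the gene as GENCODE has it. Psmd8 and Psmd2 held no match, which says only that these letters are not in this window.

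Promoters were found for 29 of the 35 tested members, with 31 windows. TGACNNNGC was in 5 of the 31 windows (16.1%) and in 10.2% of the 32851 promoters of the table. TGAGNNNGC was in 9 of 31 (29.0%) against 14.4%, and either form was in 12 of 31 (38.7%) against 23.0%. The CCAAT box, a promoter element bound by NF-Y and searched on both strands, was in 11 of 31 (35.5%) against 33.8%. CCAAT is part of neither of the other patterns. Matches of TGACNNNGC and TGAGNNNGC cannot coincide on the same strand, while matches on opposite strands can share bases. Either form of the antioxidant response element stood in 5 of 10 windows of members that were higher at 0.2 mM glutamine, in 2 of 12 windows of members that were lower and in 5 of 9 windows of the others. These are counts of letters in windows of equal length, with no test. Members were sorted by their calls in TPM, and the 10 higher windows are of 9 genes, since Psma6 has 2 windows. With each library scaled by the median of its ratios to a reference, Psma6 and Psmb6, which hold a match, were no longer called. Nor were Psmd4, Psmd10, Psmd13 and Psmc5, which hold none. Psmd5, Psma4, Psmb3 and Psmc2, with a match in a window, were then called lower, and so were Psmb4 and Psmd6, without a match.

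The depth of the libraries is unknown, since TPM sums to a fixed total, and values of genes at a few TPM carry an error that cannot be given. Log2 fold changes are on the scale of log2(TPM + 1), with the SE from limma after ±, and TPM values carry their SD with n = 5. A gene is said to have risen, fallen or changed only where limma's p, adjusted by Benjamini-Hochberg over the 12350 genes tested, was under 0.05. At 0.2 mM glutamine the median gene stood 0.14 higher than at 4 mM. For Psmd8, Psmd9, Psmb5 and Psmd1 the difference between the glutamine levels is therefore also given relative to that gene. All other differences, those of the pathway genes included, are given without taking it off. The share of mitochondrially encoded mRNA was 5.18 to 6.78% of TPM in the EIPA libraries, 8.55 to 9.24% in the 0.2 mM vehicle, 9.14 to 10.4% with IL-1a and 9.30 to 12.3% in the 4 mM vehicle. The summed level of 10 fibroblast markers, 8 of them expressed and Fap and Lum near 0, was 1926 to 2240 TPM, 3398 to 4065 TPM, 7635 to 9904 TPM and 9130 to 10183 TPM in the same order of groups. Pdgfra and Pdgfrb went the other way between the 0.2 mM groups. They were at 6.15 and 11.3 TPM in the vehicle and at 14.8 and 15.1 TPM with EIPA. Of 5 leukocyte markers Adgre1 and Cd3e were at 0, Ptprc and Itgam at most 0.004 TPM on average, and Cd68 was at 7.85 TPM with EIPA and 2.10 to 2.35 TPM in the other groups, so that the summed level was 7.23 to 8.70 TPM with EIPA and 1.56 to 2.67 TPM elsewhere. Of 5 epithelial markers Epcam, Krt8 and Cdh1 were at most 1.70 TPM, while Krt19 and Krt18 were expressed. The sum was 88.5 to 119.85 TPM with EIPA, 133 to 206 TPM in the 0.2 mM vehicle, 167 to 362 TPM with IL-1a and 186 to 397 TPM in the 4 mM vehicle. Krt18 went against the sum between the 0.2 mM groups, at 4.78 TPM in the vehicle and 10.4 TPM with EIPA. Of 3 endothelial markers Kdr alone was above 1 TPM, with sums of 6.12 to 10.2 TPM at 0.2 mM and 1.78 to 3.44 TPM at 4 mM. Of 3 mural markers Mcam alone was, with sums of 3.03 to 4.27 TPM with EIPA and 6.75 to 12.5 TPM elsewhere. Of 3 Schwann cell markers Sox10 was at 0, while Mbp was expressed in every group, with sums of 23.35 to 30.5 TPM with EIPA and 28.9 to 37.2 TPM elsewhere. All 3 mesothelial markers were expressed, with sums of 94.3 to 186 TPM with EIPA, 170.42 to 227 TPM in the 0.2 mM vehicle and 321 to 528 TPM at 4 mM. Msln alone differed little, with group means from 83.9 TPM with EIPA to 94.6 TPM with IL-1a. In bulk RNA, fewer cells of a type and less RNA per cell cannot be told apart. The part of these differences in the results was not tested. Over all tested genes, the first principal component of the 10 libraries at 4 mM (38.0% of their variance) set IL-1a replicates 1 and 5 and vehicle replicate 5 apart, with scores of 17.3 to 22.3 where the other 7 lay from -12.7 to -1.75. Replicate 5 of both 0.2 mM groups stood apart for single members, as did IL-1a replicate 4 for Psmd4, which was left out only on its own. Counts without the 3 libraries at 4 mM and without both numbered 5 at 0.2 mM are given beside each comparison.

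In the 4 mM vehicle the tested subunit genes ran from 32.8 TPM (Psmd10) to 504 TPM (Psmb3). Among the 14 constitutive core genes, Psmb3, a beta subunit without a protease site, was the highest at 504 ± 26.9 TPM and Psma2, of the alpha ring, the lowest at 129 ± 8.57 TPM. They kept these places in all 4 groups. The 17 Psmc and Psmd subunits of the finished regulatory particle ran from 105 ± 6.07 TPM for Psmd13 to 385 ± 27.2 TPM for Psmd2. Psmd13 is of the lid and Psmd2 is the scaffold that holds substrate shuttles, and the ratio was 3.67. Subunits with other symbols are not among the 17. Within the ATPase ring the order began with Psmc3 at 279 ± 15.9 TPM and ended with Psmc4 at 159.95 ± 7.34 TPM. The assembly chaperones were transcribed at a lower level, with Psmd5 at 48.4 ± 7.51 TPM, Psmd9 at 46.6 ± 2.25 TPM and Psmd10 at 32.8 ± 2.22 TPM. Psmb10, the inducible subunit that can replace Psmb7, was at 40.6 ± 4.62 TPM, 11.9% of the level of Psmb7. All core genes together made up 4337.5 ± 174 TPM and all regulatory genes 3892.3 ± 154 TPM, so the proteasome took 0.823% of the transcripts.

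At low glutamine the subunit genes differed in both directions and not as a block. Between 0.2 and 4 mM glutamine in vehicle, 9 of the 35 members were higher and 15 were lower, where 45.4% of all 12350 tested genes were higher and 27.9% lower. The total of 24 called members is 68.6%, near the background of 73.3%. The libraries of the 2 groups did not overlap for 19 members, against 59.9% of all genes. The median member differed by -0.10 and the median gene by 0.14. Each library was also scaled by the median of its ratios to a reference instead of to a fixed sum. With this scaling 3 members were higher (Psmd8, Psmd9 and Psmb5) and 23 lower. The shares of all genes above are for TPM and are no background for these counts. The shares with this scaling are not given. The core particle had 3 genes higher and 8 lower of 15, with a median of -0.19, and the regulatory particle had 6 higher and 7 lower of 20, with a median of -0.02. Without the 3 libraries that stand apart at 4 mM the counts were 9 higher and 17 lower, and without both 0.2 mM libraries numbered 5 they were 9 and 15.

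**Figure D1:**
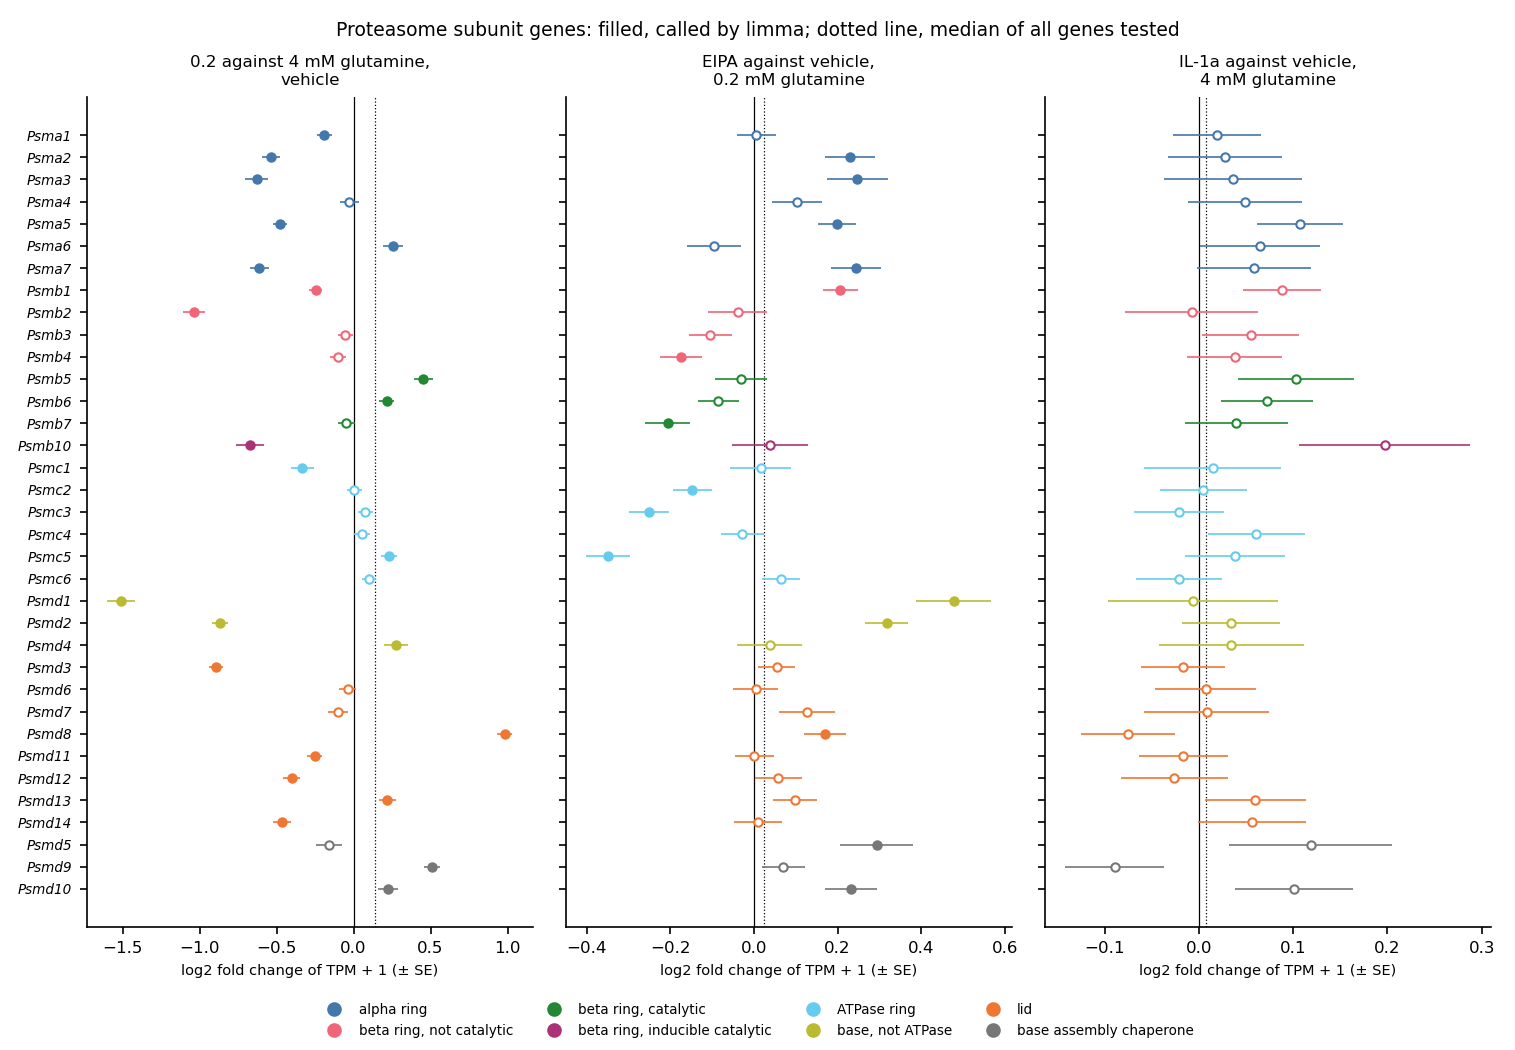
Log2 fold change of TPM + 1 with its SE for the 35 tested members in 3 comparisons, by role; filled points were called by limma and the dotted line is the median of all tested genes. The horizontal scales differ: at low glutamine members ran from -1.51 (Psmd1) to 0.98 (Psmd8), with EIPA from -0.35 (Psmc5) to 0.48 (Psmd1), and with IL-1a no point is filled.

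Psmd8 had the largest rise. It codes for a lid subunit and lies at chr7:29174188-29180701, minus strand (GRCm38; ENSMUSG00000030591). Its level was 187, 182, 173, 190.45 and 202 TPM in the 5 libraries of the 4 mM vehicle and 379, 386, 360.47, 369 and 355 TPM in those of the 0.2 mM vehicle. Every 0.2 mM library was above every 4 mM library. The log2 fold change was 0.98 ± 0.05, or 0.84 relative to the median gene, with an adjusted p of 6.3e-13 in limma. Psmd3, a lid scaffold (chr11:98682554-98695979, plus strand; ENSMUSG00000017221), was at 289.63, 289, 292, 314 and 275 TPM at 4 mM and at 148, 151, 162, 155 and 168 TPM at 0.2 mM, again with no overlap, and fell by 0.89 on the log2 scale (SE 0.04, adjusted p = 4.7e-13 in limma). Psmd14, the deubiquitinase of the lid, fell by 0.47 (adjusted p = 3e-07 in limma), from 199.73 ± 8.47 TPM to 145 ± 16.4 TPM. Psmd13 rose from 105 ± 6.07 TPM to 122 ± 4.53 TPM, a log2 fold change of 0.22 ± 0.05, but its call was lost with median-of-ratios scaling (0.08, adjusted p = 0.21 in limma). Psmd13 shares an exon with Sirt3 on the opposite strand, itself at 5.69 TPM in the 4 mM vehicle and 17.8 TPM in the 0.2 mM vehicle, and whether the counting used strand is not given in the sources used here. In all, 2 of the 8 Psmd genes of the lid rose and 4 fell.

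The base of the regulatory particle held the largest fall. Psmd1 codes for the large scaffold of the base and lies at chr1:86064387-86139151, plus strand (ENSMUSG00000026229). Its level was 192, 192, 178, 184 and 159 TPM in the 4 mM vehicle and 59.0, 58.5, 62.9, 55.6 and 80.7 TPM in the 0.2 mM vehicle. The groups were far apart, although replicate 5 of the 0.2 mM vehicle was the highest of its group. The log2 fold change was -1.51 ± 0.09 (-1.65 relative to the median gene, adjusted p = 5.9e-12 in limma). Psmd2, the second scaffold (chr16:20651652-20663414, plus strand; ENSMUSG00000006998), was at 416, 397, 373, 393 and 345 TPM and then at 213, 200.23, 212, 199.93 and 228 TPM, with no overlap and a log2 fold change of -0.87 ± 0.05 (adjusted p = 5.9e-12 in limma). Psmd4, the ubiquitin receptor, went the other way, from 262 ± 10.1 TPM to 320.39 ± 44.7 TPM (log2 fold change 0.28 ± 0.08, adjusted p = 0.0028 in limma). Its groups overlapped, since replicate 5 of the 0.2 mM vehicle stood at 246 TPM, and with median-of-ratios scaling it was not called (0.14, adjusted p = 0.14 in limma).

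The ATPase ring had few calls. Of its 6 genes, 1 rose (Psmc5, 0.23 ± 0.05, from 240.34 ± 10.2 TPM to 283 ± 25.0 TPM) and 1 fell (Psmc1, -0.33 ± 0.07). The call of Psmc5 was lost with median-of-ratios scaling (0.09, adjusted p = 0.15 in limma). Psmc2 stood at 236 ± 7.30 TPM and 237 ± 11.8 TPM, a log2 fold change of 0.01 ± 0.05 that turned to -0.13 with median-of-ratios scaling (adjusted p = 0.024 in limma). Of the assembly chaperones, Psmd9 rose: it was at 46.9, 44.0, 45.5, 50.1 and 46.7 TPM at 4 mM and at 63.1, 69.2, 71.0, 66.5 and 64.0 TPM at 0.2 mM. Its groups did not overlap, and its log2 fold change was 0.51 ± 0.05 (0.37 relative to the median gene, adjusted p = 2.3e-08 in limma). Psmd10, also known as gankyrin, rose by 0.22 ± 0.06 and lost its call with median-of-ratios scaling (0.09, adjusted p = 0.21 in limma), and Psmd5 was not called (-0.16 ± 0.09, adjusted p = 0.11 in limma). Without replicate 5 of the 4 mM vehicle Psmd5 was called lower (-0.25, adjusted p = 0.0039 in limma), as it was with median-of-ratios scaling (-0.30, adjusted p = 0.0079), with quantile normalisation (-0.30, adjusted p = 0.0049) and with the replicate number as a block (-0.16, adjusted p = 0.044).

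In the beta ring of the core particle, 2 of the 3 constitutive protease subunits rose and none fell, and 2 of the 4 subunits without a protease site fell and none rose; with median-of-ratios scaling it was 1 up and 1 down of the 3, and 4 down of the 4. No test compared these sets. Psmb5, which carries the chymotrypsin-like site (chr14:54614119-54618022, minus strand; ENSMUSG00000022193), was at 264, 261, 209, 241 and 247 TPM in the 4 mM vehicle and at 339, 351, 319.58, 355 and 304 TPM in the 0.2 mM vehicle. All low-glutamine libraries were higher. The log2 fold change was 0.45 ± 0.06 (0.31 relative to the median gene, adjusted p = 1.3e-06 in limma). Psmb6, with the caspase-like site, rose by 0.22 ± 0.05 but not with median-of-ratios scaling (0.07, adjusted p = 0.21 in limma). Psmb7, with the trypsin-like site, was not called (-0.05 ± 0.05, adjusted p = 0.44 in limma), and with median-of-ratios scaling it was lower (-0.19, adjusted p = 0.01 in limma). Psmb2, a beta subunit without a protease site (chr4:126677630-126709714, plus strand; ENSMUSG00000028837), was at 367, 348, 353, 337 and 358 TPM at 4 mM and at 161, 149.75, 183, 156 and 215 TPM at 0.2 mM. The groups were far apart, with replicate 5 again the highest of the 0.2 mM vehicle, and the log2 fold change was -1.04 ± 0.07 (adjusted p = 4e-11 in limma). The inducible subunit Psmb10 fell from 44.5, 39.5, 33.2, 44.1 and 42.0 TPM to 27.7, 27.7, 25.5, 22.9 and 21.7 TPM, a log2 fold change of -0.67 ± 0.09 (adjusted p = 1.1e-06 in limma), without overlap. Its level as a share of Psmb7 was 11.9 ± 1.23% at 4 mM and 7.59 ± 0.825% at 0.2 mM.

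The alpha ring was mostly lower, with 5 of its 7 genes fallen and 1 risen. Psma3 was at 403, 409, 367, 368 and 328 TPM in the 4 mM vehicle and 265, 256, 239, 242 and 209.57 TPM in the 0.2 mM vehicle, a log2 fold change of -0.63 ± 0.07 (adjusted p = 1.3e-07 in limma). Psma7, the alpha gene with the highest level, was at 512, 506, 486, 501 and 477 TPM and 346, 350.19, 319.67, 343 and 269.57 TPM, a log2 fold change of -0.61 ± 0.06 (adjusted p = 1.2e-08 in limma). Neither gene had overlapping groups. Psma2 fell by 0.54 and Psma5 by 0.47. Psma6 was the alpha gene that rose, from 257 ± 15.5 TPM to 307 ± 19.6 TPM (0.26 ± 0.06, adjusted p = 0.0011 in limma), a call lost with median-of-ratios scaling (0.12, adjusted p = 0.15 in limma).

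**Figure D2:**
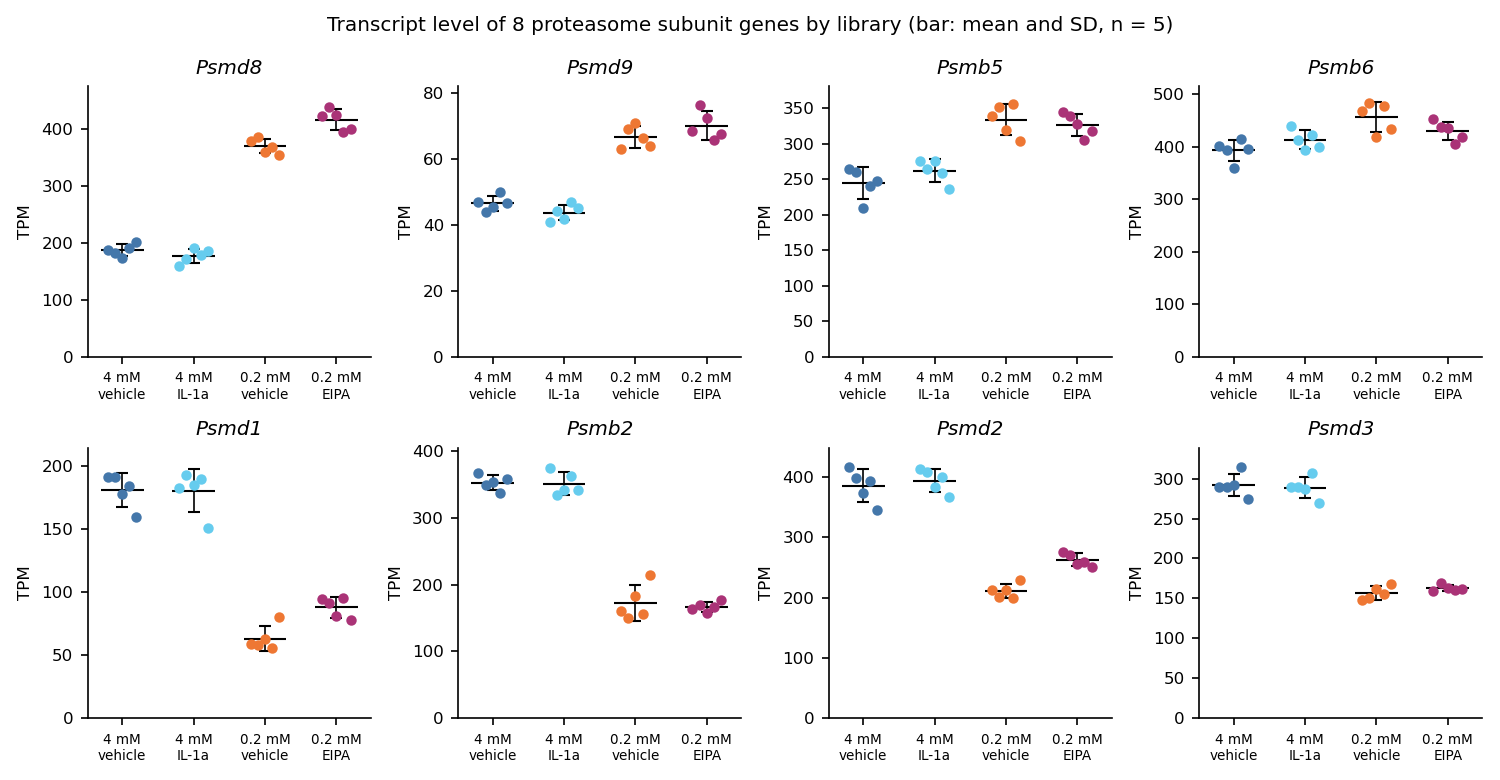
TPM of 8 members in each library of the 4 groups, with the group mean and SD (n = 5); each vertical axis starts at 0. The top row holds genes higher at 0.2 mM glutamine and the bottom row genes lower there; Psmd8 sits between 355 and 386 in the 0.2 mM vehicle and between 173 and 202 in the 4 mM vehicle.

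The order of the subunit genes by level changed with it. Among the 8 Psmd genes of the lid, Psmd3 was the highest at 4 mM with 292 ± 14.3 TPM. Psmd8 came after Psmd3, Psmd7 and Psmd14. At 0.2 mM Psmd8 was the highest. The ratio of Psmd8 to Psmd1 within a library, which no scaling of the library alters, was 1.04 ± 0.13 in the 4 mM vehicle and 5.96 ± 0.942 in the 0.2 mM vehicle, and that of Psmd8 to Psmd3 was 0.642 ± 0.056 and 2.37 ± 0.199. In the beta ring, the ratio of Psmb5 to Psmb2 was 0.693 ± 0.0604 at 4 mM and 1.98 ± 0.391 at 0.2 mM. These pairs were picked for their opposite moves, so the ratios are a description. The ratio of the highest to the lowest of the 17 Psmc and Psmd subunits of the finished particle was 3.67 at 4 mM and 5.84 at 0.2 mM. The coefficient of variation over these genes was 29.8% and 39.8%. Over the 14 constitutive core genes it was 37.2% and 43.2%.

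**Figure D3:**
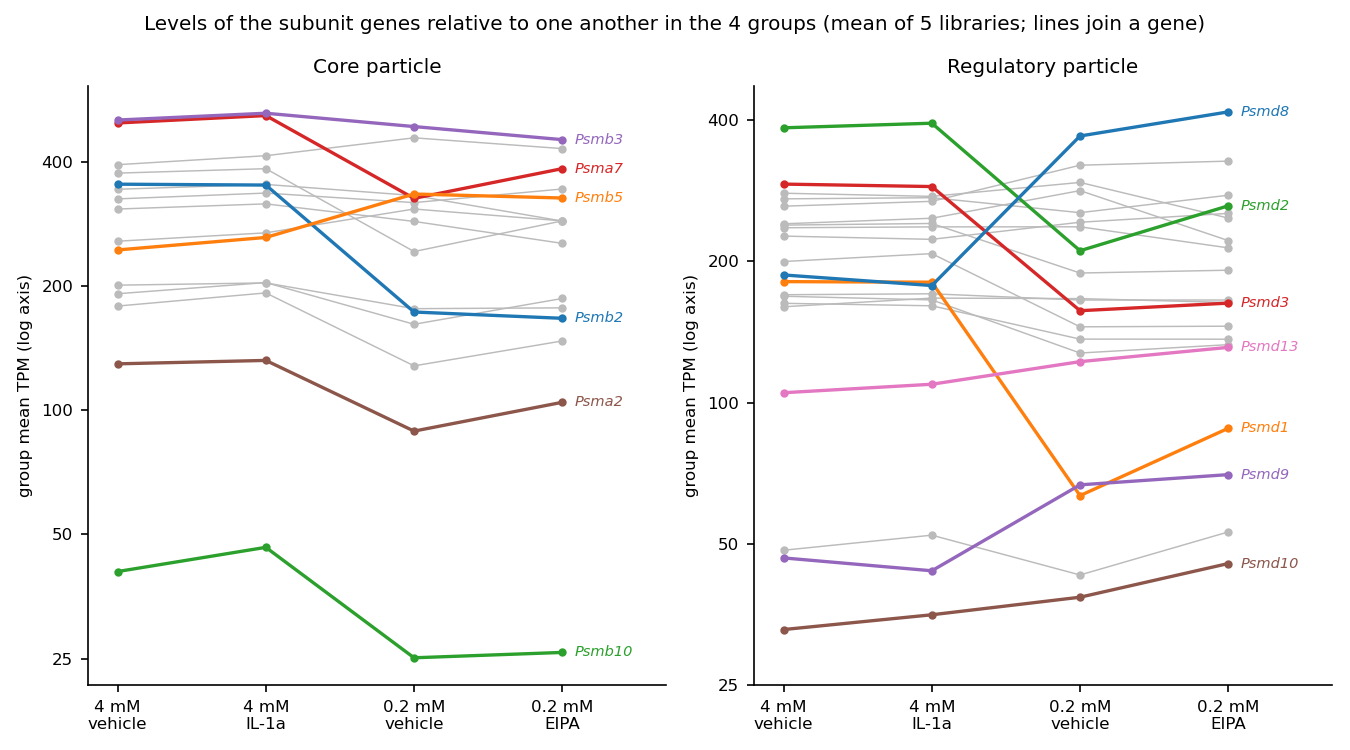
Group mean TPM (log axis) of the tested core genes and regulatory genes in the 4 groups, 5 libraries each, with lines joining a gene. Psmd8 and Psmd1 start together at 187 and 181 TPM in the 4 mM vehicle. They end as the highest and the lowest Psmc or Psmd subunit of the finished regulatory particle in both 0.2 mM groups. Psmb5 and Psmb2 cross.

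The core particle stood closer to the regulatory particle at low glutamine. The mean log2 level of the 15 tested core genes was 7.98 ± 0.06 in the 4 mM vehicle, 8.04 ± 0.06 with IL-1a, 7.73 ± 0.04 in the 0.2 mM vehicle and 7.77 ± 0.03 with EIPA. For the 20 regulatory genes it was 7.39 ± 0.06, 7.40 ± 0.04, 7.27 ± 0.02 and 7.33 ± 0.05. The core minus regulatory difference was 0.59 ± 0.04, 0.64 ± 0.05, 0.46 ± 0.04 and 0.43 ± 0.03 in the same order. Each of the 10 libraries at 4 mM lay between 0.53 and 0.71, and each of the 10 at 0.2 mM between 0.39 and 0.50. Summed, core genes made 3839.7 ± 113 TPM and regulatory genes 3631.0 ± 47.4 TPM in the 0.2 mM vehicle. These averages over chosen genes are a description without a test.

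**Figure D4:**
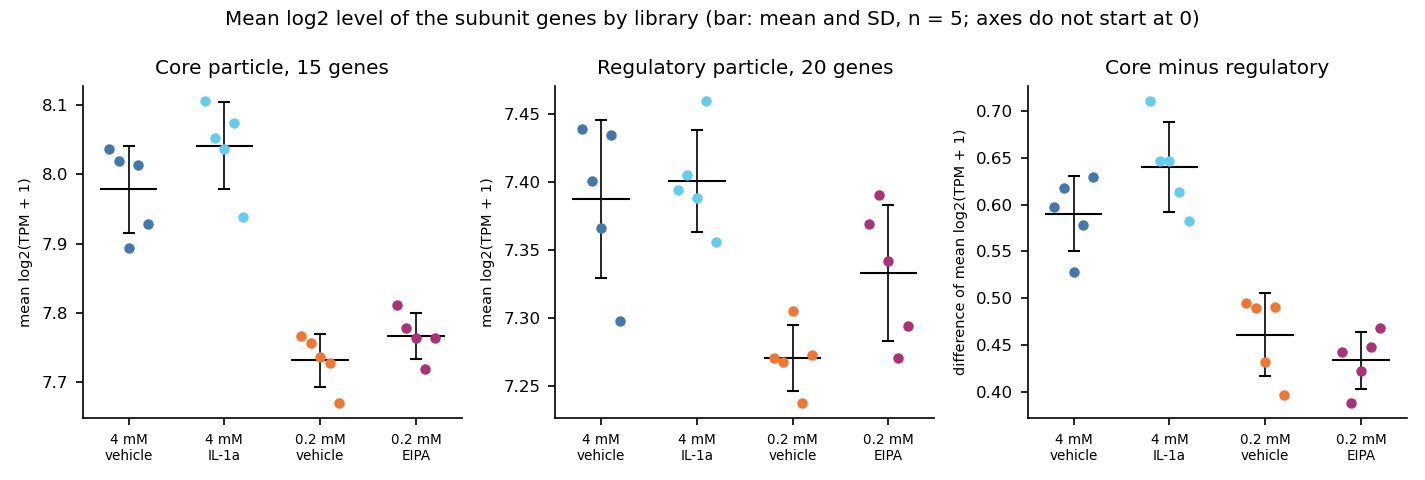
Mean log2(TPM + 1) of the 15 core genes, of the 20 regulatory genes and their difference in each library, with the group mean and SD (n = 5); the vertical axes do not start at 0. The difference lies between 0.53 and 0.71 in the libraries at 4 mM glutamine and between 0.39 and 0.50 in those at 0.2 mM.

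With EIPA at 0.2 mM glutamine, subunit genes were called in both directions, at about the share of all genes, and none changed by more than 0.48 on the log2 scale. Against the 0.2 mM vehicle, 10 of the 35 members rose and 5 fell, where 27.4% of all genes tested rose and 21.1% fell. The 15 called members are 42.9%, against 48.5% of all genes. The groups did not overlap for 10 members, against 34.6% of all genes. The core particle had 5 higher and 2 lower, the regulatory particle 5 higher and 3 lower, and the median member differed by 0.04 where the median gene differed by 0.02. By role, 4 of 7 alpha genes and 2 of 3 base scaffolds and receptors rose and none of them fell, 3 of 6 ATPase genes fell and none rose, and 1 of 8 lid genes rose. Whether these roles differed from one another was not tested. Without both 0.2 mM libraries numbered 5 the counts were again 10 and 5, and without mitochondrially encoded genes they were 10 and 7.

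Psmd1 rose most with EIPA. It was at 59.0, 58.5, 62.9, 55.6 and 80.7 TPM in the 0.2 mM vehicle and at 94.6, 91.3, 81.2, 95.8 and 77.7 TPM in the EIPA libraries, which overlapped only through replicate 5 of each group. The log2 fold change was 0.48 ± 0.09 (adjusted p = 0.00018 in limma), and 0.61 without those 2 libraries. Htr2b, on the opposite strand within Psmd1, stood at 0.234 TPM in the 0.2 mM vehicle and 2.03 TPM with EIPA. Psmd2 was at 276, 271, 256, 259 and 250.04 TPM with EIPA, every library above the vehicle libraries listed before, and rose by 0.32 ± 0.05 (adjusted p = 3.8e-05 in limma). Both scaffolds stayed under their level in the 4 mM vehicle. Psmd8, already high in the 0.2 mM vehicle, was at 424, 439, 424, 394 and 401 TPM and rose by 0.17 ± 0.05 (adjusted p = 0.0082 in limma), with no overlap. Of the chaperones, Psmd5 rose by 0.29 ± 0.09 from 42.9 ± 2.42 TPM to 53.0 ± 5.73 TPM, and Psmd10 rose by 0.23 ± 0.06 from 38.5 ± 2.44 TPM to 45.4 ± 2.94 TPM. Psmd9 was not called (0.07 ± 0.05, adjusted p = 0.28 in limma).

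The 4 alpha genes that rose did so by 0.20 to 0.25. Psma3 was at 307, 311, 271, 283 and 263 TPM with EIPA (log2 fold change 0.25 ± 0.07, adjusted p = 0.0084 in limma), and replicate 5, the lowest, lay within the range of the vehicle. Psma7 was at 402, 410.24, 366, 372 and 372 TPM, above every vehicle library (0.24 ± 0.06, adjusted p = 0.0023 in limma). Psma2 rose by 0.23 ± 0.06 and Psma5 by 0.20 ± 0.05. In the beta ring, Psmb1, a subunit without a protease site, rose by 0.21 ± 0.04 (from 161 ± 5.72 TPM to 186 ± 7.25 TPM).

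The members that fell with EIPA were 3 ATPases and 2 beta genes. Psmc5 was at 266, 273, 286, 264 and 325 TPM in the 0.2 mM vehicle and at 224, 229, 221, 211 and 223 TPM with EIPA. The EIPA libraries were all lower, and the vehicle's replicate 5 was the highest of all. The log2 fold change was -0.35 ± 0.05 (adjusted p = 1.7e-05 in limma). Psmc3 was at 296, 298, 305, 298 and 275 TPM and 253, 264, 248, 234 and 237 TPM, also without overlap, and changed by -0.25 ± 0.05 (adjusted p = 0.00019 in limma). It shares an exon with Slc39a13 on the opposite strand, which was at 30.9 TPM in the vehicle and 33.2 TPM with EIPA. Psmc2 changed by -0.15 ± 0.05 (adjusted p = 0.012 in limma), a call lost without both libraries numbered 5 (-0.11, adjusted p = 0.072 in limma). Psmb7, the trypsin-like subunit, was at 327, 334, 340.27, 317 and 336 TPM and 311, 289, 289.7, 286 and 259.84 TPM, with no overlap and a change of -0.21 ± 0.05 (adjusted p = 0.0036 in limma). It shares an exon with Nek6 on the opposite strand, at 11.2 TPM in the vehicle and 8.22 TPM with EIPA. Psmb4, a beta subunit without a protease site, changed by -0.18 ± 0.05. The other protease subunits were not called: Psmb5 differed by -0.03 ± 0.06, Psmb6 by -0.09 ± 0.05 and Psmb10 by 0.04 ± 0.09. Psmb6 was called lower when mitochondrially encoded genes were left out (-0.13, adjusted p = 0.02 in limma). Psmd14 (0.01 ± 0.06) and Psmd4 (0.04 ± 0.08) were not called either.

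The comparison of glutamine levels and that of EIPA share the 5 libraries of the 0.2 mM vehicle, so an error in those libraries enters both with opposite sign. A comparison without those libraries sets EIPA at 0.2 mM against the 4 mM vehicle, which differ in both glutamine and EIPA. There 9 members were higher and 20 lower, against 48.7% and 28% of all genes. The 29 called members are 82.9% where 76.7% of all genes were called, and 22 members had groups without overlap where 64.7% of all genes did. The median member differed by -0.16 where the median gene differed by 0.18. With median-of-ratios scaling 5 were higher and 23 lower, and the shares of all genes with that scaling are not given. Without the 3 libraries that stand apart at 4 mM the counts were 9 and 19. They were 9 and 20 without both 0.2 mM libraries numbered 5. Psmd8 was higher by 1.15 ± 0.05, Psmd9 by 0.58 ± 0.05, Psmd10 by 0.46 ± 0.06 and Psmb5 by 0.42 ± 0.06. Psmb2 was lower, at -1.08 ± 0.07, as were Psmd1 (-1.03 ± 0.09), Psmd3 (-0.84 ± 0.04), Psmb10 (-0.63 ± 0.09) and Psmd2 (-0.55 ± 0.05). Psmd4 (0.31 ± 0.08) and Psmd13 (0.32 ± 0.05) were also higher, and with median-of-ratios scaling Psmd4 was not called (0.14). Psmb6 (0.13), Psma6 (0.16) and Psmc6 (0.16), higher by TPM, turned to -0.05, -0.02 and -0.02 with median-of-ratios scaling. The call of Psmb6 was also lost without EIPA replicate 1 or 4 mM vehicle replicate 3 (adjusted p = 0.058 and 0.072 in limma), and that of Psma6 without any 1 of EIPA replicates 1, 2 and 3 and 4 mM vehicle replicates 3 and 5 (adjusted p = 0.059 to 0.07 in limma).

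IL-1a at 4 mM glutamine left no member called. With limma, 0 of 35 members rose and 0 fell, where 0.259% and 0.0243% of all genes did (0.283% in all, 35 genes). For 3 members of the core particle, Psma5, Psmb1 and Psmb10, the unadjusted p of limma was under 0.05. The share of all genes under that unadjusted limit is not given, so these 3 are no result about the members. No alternative setting that was run called a member. Differences ran from -0.09 (Psmd9) to 0.20 (Psmb10), with a median of 0.04 where the median gene differed by 0.01. Psmb10 was at 49.0, 47.3, 47.0, 45.6 and 43.7 TPM with IL-1a and at 44.5, 39.5, 33.2, 44.1 and 42.0 TPM in the 4 mM vehicle. The groups overlapped through 2 of the 5 vehicle libraries (log2 fold change 0.20 ± 0.09, adjusted p = 0.79 in limma). Psmb1 was the single member, 1 of 35 against 1.38% of all genes, whose groups did not overlap, at 197 to 223 TPM with IL-1a and 185 to 196 TPM without. Its log2 fold change was 0.09 ± 0.04 (adjusted p = 0.81 in limma). Without the 3 libraries that stand apart at 4 mM, again 0 members were called.

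The pathway around the proteasome was followed through 45 further genes found in the table, 44 of them tested. At low glutamine 19 were higher and 16 lower (14 and 22 with median-of-ratios scaling), with EIPA 19 rose and 9 fell (15 and 10), and with IL-1a 0 were called and 3 (Psmb8, Psmg4 and Rps27a) had an unadjusted p under 0.05. Of all genes tested, 45.4% were higher and 27.9% lower at low glutamine, and 27.4% and 21.1% with EIPA. These shares are for TPM and adjusted p. Those with median-of-ratios scaling and those at an unadjusted p under 0.05 are not given. Of 9 genes of transcriptional control, 6 rose and 2 fell at low glutamine, and 7 rose and 1 fell with EIPA. Nfe2l1, the factor that answers to proteasome shortage, was at 175 ± 18.5 TPM in the 4 mM vehicle, 215 ± 10.3 TPM in the 0.2 mM vehicle and 269 ± 19.8 TPM with EIPA. It rose by 0.30 ± 0.07 at low glutamine and by 0.32 ± 0.07 with EIPA (adjusted p = 0.0011 and 0.0013 in limma). Nfe2l2, its relative that responds to oxidants, rose by 0.45 ± 0.07 and 0.48 ± 0.07. The small Maf partners of both factors rose more at low glutamine, Mafk by 1.94 ± 0.13 and Maff by 1.70 ± 0.17, and Maff rose again by 1.12 ± 0.17 with EIPA. Ngly1, whose deglycosylation Nfe2l1 needs to become active, fell in both, by 0.68 and 0.55, to 7.43 ± 1.99 TPM with EIPA.

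Assembly factors and alternative caps moved in both directions. Psmg3, of the chaperones for the alpha ring, rose by 1.26 ± 0.05 at low glutamine, from 33.9 ± 2.76 TPM to 82.2 ± 2.20 TPM, and changed by -0.19 ± 0.05 with EIPA. Psmg2 rose by 0.56 ± 0.07 and fell by 0.59 with EIPA. Pomp, a chaperone that helps to complete the core particle, was called lower at low glutamine (-0.32, adjusted p = 0.037 in limma) and higher with EIPA (0.33 ± 0.13, adjusted p = 0.047 in limma), through replicates 1 and 2 of the 0.2 mM vehicle at 141 and 164 TPM. The other 3 libraries of that group were at 246 to 261 TPM, those with EIPA at 249 to 269 TPM and those of the 4 mM vehicle at 223 to 296 TPM. Without replicate 1 of the 0.2 mM vehicle the differences were -0.18 and 0.19 (adjusted p = 0.15 and 0.17 in limma), and without its replicate 2 -0.23 and 0.24 (adjusted p = 0.12 and 0.14 in limma). Akirin2, which carries proteasomes into the nucleus, rose by 0.74 ± 0.05 and fell by 0.29. Of the activators, Psme1, part of the 11S cap, fell by 1.14 at low glutamine and rose by 0.57 ± 0.10 with EIPA, while Psme3 was not called in either (-0.10 ± 0.09 and -0.06 ± 0.09), though without replicate 5 of the 0.2 mM vehicle it was lower at low glutamine (-0.21, adjusted p = 0.013 in limma). The immunoproteasome subunit Psmb8 was low, at 3.97 ± 0.69 TPM in the 4 mM vehicle, 1.85 ± 0.23 TPM in the 0.2 mM vehicle and 5.09 ± 1.57 TPM with EIPA. It fell by 0.79 and rose by 1.06 ± 0.22. Psmb9 was under the filter, at 0 to 1.08 TPM.

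Among factors bound to the particle or bringing substrates to it, Sqstm1, the autophagy receptor p62, rose from 613 ± 51.3 TPM to 1839 ± 301 TPM at low glutamine (1.57 ± 0.10) and to 2318 ± 162 TPM with EIPA (0.35 ± 0.10). Zfand2a, a proteasome-associated protein induced by arsenite, rose by 1.55 ± 0.09 and by 0.96 ± 0.09. Vcp, the segregase that extracts ubiquitylated proteins, fell by 0.66 at low glutamine and was not called with EIPA (-0.04 ± 0.04). The shuttle gene Ubqln2 fell by 0.74 at low glutamine.

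**Figure D5:**
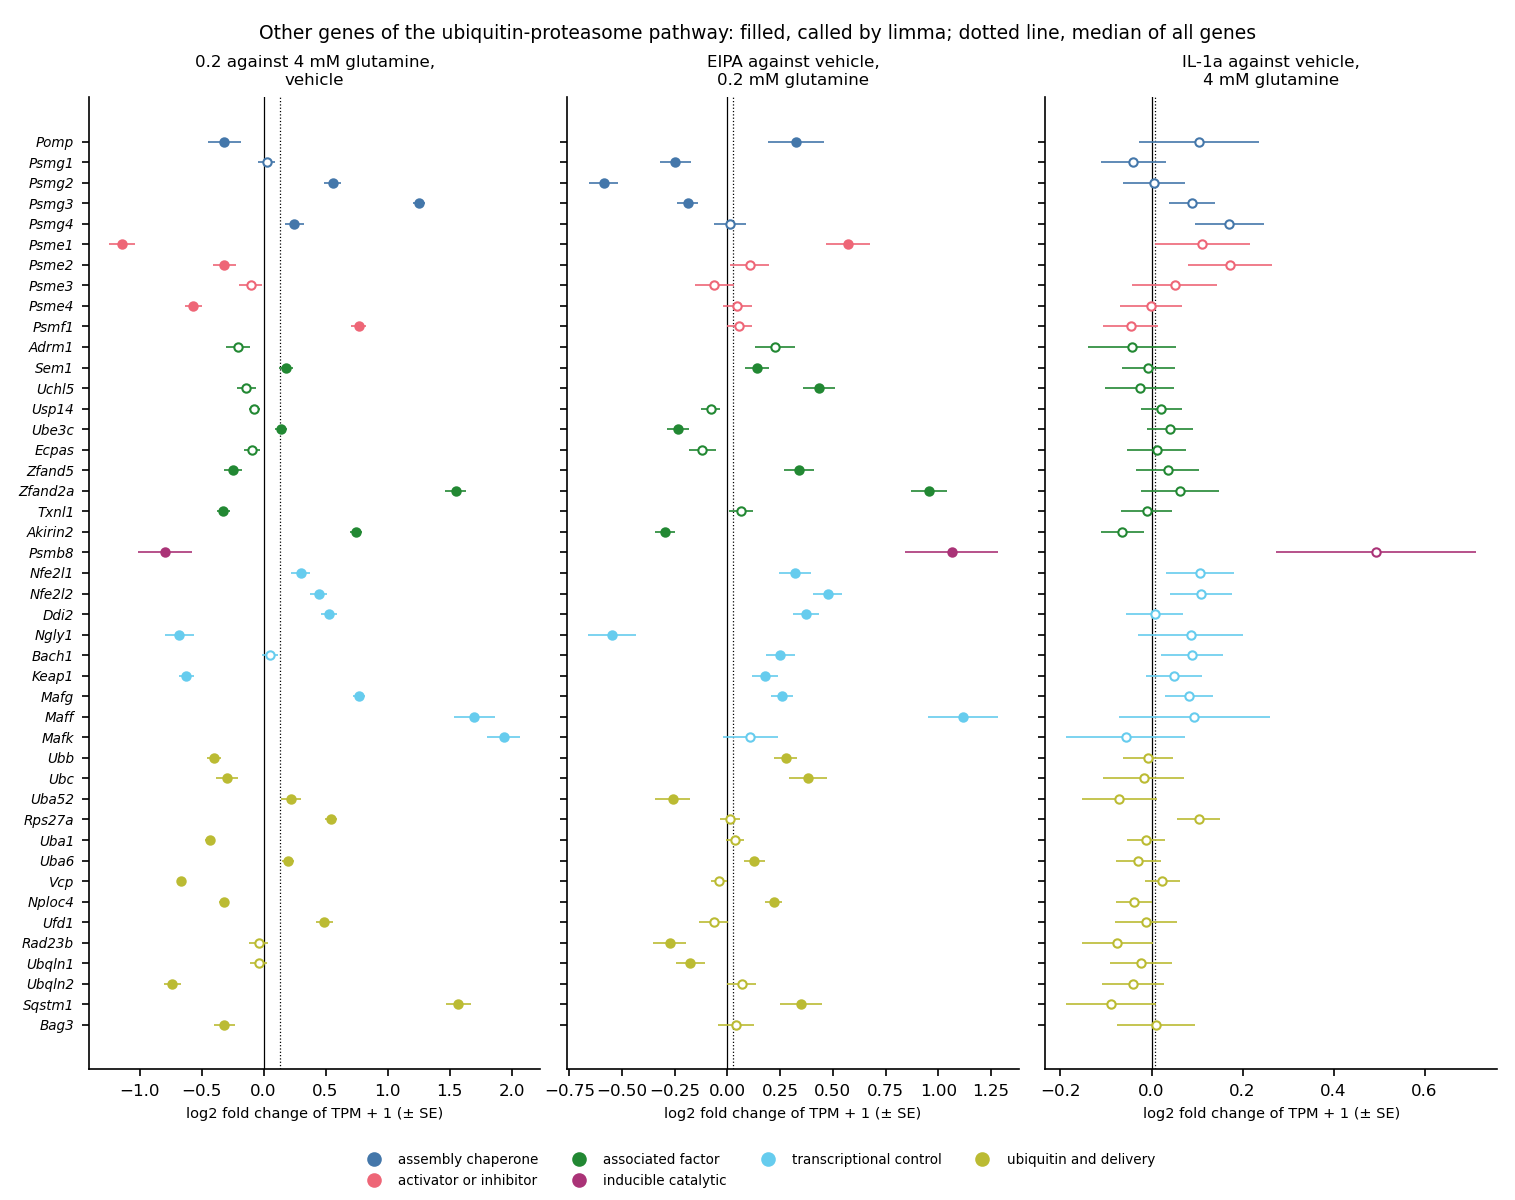
Log2 fold change of TPM + 1 with its SE for 44 tested genes of the pathway around the proteasome in 3 comparisons, by role; filled points were called by limma and the dotted line is the median of all tested genes. The horizontal scales differ; at low glutamine genes ran from -1.14 (Psme1) to 1.94 (Mafk), and with IL-1a no point is filled.

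The remaining members are given so that each gene is accounted for, and were named after their values were seen. At low glutamine Psma1 changed by -0.19 ± 0.05, Psmb1 by -0.24 ± 0.04, Psmd11 by -0.25 ± 0.05 and Psmd12 by -0.40 ± 0.06, all called by limma. Psmb4 was not called there (-0.10 ± 0.05, adjusted p = 0.08 in limma). It was called lower with median-of-ratios scaling (-0.24, adjusted p = 0.00027 in limma) and without mitochondrially encoded genes (-0.12, adjusted p = 0.029 in limma). The same held without the 3 libraries that stand apart at 4 mM (-0.11, adjusted p = 0.037 in limma). With EIPA, Psma1 (0.01 ± 0.05), Psmd11 (0.00 ± 0.05) and Psmd12 (0.06 ± 0.06) were not called. Nor were Psmb2 (-0.04 ± 0.07), Psmc1 (0.02 ± 0.07), Psmd3 (0.05 ± 0.04), Psma6 (-0.10 ± 0.06) and Psmd13 (0.10 ± 0.05). Psma6 was called lower with the replicate number as a block (adjusted p = 0.047 in limma). Psmd13 was called higher without EIPA replicate 4 (0.14, adjusted p = 0.027 in limma). Psma4 at 325 ± 22.2 TPM, Psmb3, Psmc4 and Psmc6 at 226 ± 14.4 TPM, and Psmd6 and Psmd7 of the lid at 169.69 ± 9.76 and 272 ± 16.3 TPM in the 4 mM vehicle were called in neither comparison. Their differences at low glutamine ran from -0.10 (Psmd7) to 0.10 (Psmc6), and with EIPA from -0.10 (Psmb3) to 0.13 (Psmd7). With median-of-ratios scaling Psma4, Psmb3, Psmd6 and Psmd7 were called lower at low glutamine, at -0.17, -0.19, -0.18 and -0.24. Psmc6 was called higher there without replicate 1 of the 0.2 mM vehicle (0.12, adjusted p = 0.037 in limma) or replicate 3 of the 4 mM vehicle (0.13, adjusted p = 0.013 in limma). With EIPA, Psmb3 was called lower without replicate 5 of the 0.2 mM vehicle (-0.14, adjusted p = 0.017 in limma), without both libraries numbered 5 (-0.13, adjusted p = 0.037), with quantile normalisation (-0.12, adjusted p = 0.04), without mitochondrially encoded genes (-0.15, adjusted p = 0.015) and with the replicate number as a block (-0.10, adjusted p = 0.042), and Psmd7 was called higher with the block (0.13, adjusted p = 0.028). Psma4, Psma5 and Psmd3 share an exon with an opposite-strand gene whose mean level over the 20 libraries was at most 0.17 TPM (AY074887 with Psma4).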

How the data were processed

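The values are gene-level TPM as the authors deposited them, with 2 decimals, for 32285 genes in 20 libraries. Per the submitters' processing notes they come from RSEM on mm10. For the aligner, the annotation and the use of strand: not given in the sources used here. TPM keeps no depth, so no interval from counts could be given. Per the labels' protocols, polyadenylated RNA was sequenced as paired reads of 75 bases.

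Values were taken as log2(TPM + 1) and fitted in 1 model of the 4 groups by limma 3.58.1 (R 4.3.3), allowing a variance trend and no replicate block. A gene was tested if 5 or more libraries held it at 1 TPM or more (12350 genes). A call is a p under 0.05 after Benjamini-Hochberg adjustment over all tested genes of a comparison. The fit was tested on simulated data. Tables were handled in Python 3.11.15 with pandas 2.3.3.

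The labels do not say whether same-numbered libraries belong together. They deviated together for some numbers and not for all (correlations of 0.062 to 0.322 between the 0.2 mM groups), so the numbers were not taken as pairs, and a replicate block was an alternative. Members, gene lists and tests were chosen with earlier results of these data known. Named with values were a panel of catalytic, receptor and chaperone genes, up to 3 called members per direction and particle, members called in the rarer direction, the highest and lowest of each role, and up to 4 pathway genes per direction. Of 46 listed pathway genes, 45 were found. One further pathway gene and one cell type marker are not reported here.

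Genes were matched by ID to GENCODE M21 (GRCm38), all 82 under the same symbol, and promoters to RefSeq on GRCm38.p6. Of 31 promoter windows, 28 adjoin a GENCODE transcript of the gene on the same strand. Alternatives were a pseudocount of 0.1, no filter, a mean of at least 5 TPM, median-of-ratios scaling, quantile normalisation, leaving out mitochondrially encoded genes, fitting only the groups compared, a replicate block and leaving out libraries.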

Additional observations from a re-analysis of the deposited data

Results flagged for a closer look

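For a single member, a library was taken to stand apart where its distance to the nearest other library, divided by the range of the 5 libraries of its group, passed Dixon's 95% limit. This held for 10 of 140 values (35 members in 4 groups), and chance gives about 1 in 20. In the 0.2 mM vehicle, replicate 5 was low for Psma6, the alpha gene, at 274 TPM (others 309 to 322), and for Psmb3, of the beta ring, at 434 TPM (others 492 to 504). It was low as well for the lid genes Psmd7, at 211 TPM (others 259 to 269.86), and Psmd11, at 122 TPM (others 139 to 142). In the EIPA group, replicate 5 was high for Psma4, at 413 TPM (others 316 to 335).

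With IL-1a, replicate 5 was low for Psma6, at 231 TPM (others 272 to 284), and for the base scaffold Psmd1, at 151 TPM (others 183 to 193). Replicate 1 was high for Psmb1, at 223 TPM (others 197 to 201), and replicate 4 was high for the ubiquitin receptor Psmd4, at 283 TPM (others 262 to 267). In the 4 mM vehicle, replicate 5 was low for Psmd7, at 244 TPM (others 273 to 284).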

How the results depend on the processing

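Scaling each library by the median of its ratios moved the counts between glutamine levels from 9 higher and 15 lower to 3 and 23, and the medians of the core and regulatory genes to -0.33 and -0.16. For EIPA at 0.2 mM against the 4 mM vehicle it gave 5 higher, with medians of -0.43 and -0.25. It turned Psmc2 to -0.13 between glutamine levels and, in EIPA against the 4 mM vehicle, Psmb6 to -0.048, Psma6 to -0.016, Psmc6 to -0.016 and Psmc4 to -0.15. The mean log2 levels of core and regulatory genes became 7.67 and 7.24 (EIPA), 7.67 and 7.21 (0.2 mM vehicle), 8.11 and 7.47 (IL-1a) and 8.06 and 7.47 (4 mM vehicle). Leaving out mitochondrially encoded genes made them 7.85 and 7.42, 7.86 and 7.40, 8.19 and 7.55, and 8.14 and 7.54, turned the core median with EIPA to -0.043 from 0.006, and made the medians of EIPA against the 4 mM vehicle -0.33 and -0.15. Quantile normalisation gave 7.24 for regulatory genes in the 0.2 mM vehicle. The core minus regulatory difference moved by less than its SD under each of these.

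Leaving out each library in turn gave 9 to 10 higher and 15 to 16 lower between glutamine levels, 10 to 11 and 5 to 6 with EIPA, 7 to 10 and 19 to 20 for EIPA against the 4 mM vehicle, and 0 with IL-1a. Core medians ran from -0.22 to -0.16, -0.021 to 0.034, -0.28 to -0.22 and 0.029 to 0.083 in these comparisons, and regulatory medians from -0.036 to 0.0034, 0.036 to 0.067, -0.096 to -0.056 and -0.023 to 0.037.

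With the replicate number as a block, 9 members were higher and 16 lower between glutamine levels, 11 and 7 with EIPA, 9 and 19 for EIPA against the 4 mM vehicle, and 0 with IL-1a. Same-numbered libraries correlated best with each other for 4 of 5 numbers between glutamine levels, 4 of 5 with EIPA, 2 of 5 with IL-1a and 2 of 5 for EIPA against the 4 mM vehicle, a hint from the data and not from the design. Leaving out both 0.2 mM libraries numbered 5 was chosen after seeing the data. TPM gives no depth, so no limit from depth could be set.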
